A study of Mus musculus with 3 samples.

Results

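Dividing large pre-B cells of mouse bone marrow were selected cell by cell from counts of unique molecular identifiers (UMIs, each standing for 1 captured RNA molecule). A cell was a member if it held at least 3 UMIs of Cd79a, Cd79b and Vpreb3 together, which encode B cell receptor partners, and at least 2 UMIs of Mki67 and Top2a together, which are made in S, G2 and M phase. It also had to hold no UMI of Dntt, the terminal transferase of pro-B cells, none of Siglech, a marker of plasmacytoid dendritic cells, and none of Ighd, the IgD heavy chain of mature B cells. S100a8 and S100a9, which neutrophils make in bulk, had to stay under 2% of its UMIs. Cells under 300 genes or 500 UMIs, or above 10% mitochondrial RNA, were left out first, and of the 71014 that remained 1434 were members: 1106 from the Sham library, 130 from MI and 198 from MI-E.

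The study profiled the marrow of leg bones (femur and tibia) from C57BL/6J mice by droplet single-cell RNA sequencing after a Ficoll gradient. The labels name 3 treatments. MI is myocardial infarction by ligation of the left anterior descending coronary artery, MI-E is MI with EMPA, which the labels do not spell out, and Sham is the control. The surgical protocol is worded the same way for all of them, and time after surgery, dose, age, and the number of mice behind a library are not given in the sources used here. Each group was 1 library, so no comparison has a replicate and none is tested. Intervals are exact 95% intervals for counting error only, and a gene is called past 2-fold where its summed levels differ at least that much.

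Large pre-B cells are the stage at which a B cell precursor that has made a working Ighm heavy chain tests it. The heavy chain pairs with a surrogate light chain made from Igll1 and the Vpreb proteins, and this pre-B receptor signals through Cd79a, Cd79b, Syk and Blnk. With interleukin 7 it drives several divisions, during which the Rag1 and Rag2 recombinase is kept low. The cells then leave the cycle, shut off the surrogate light chain and reopen the recombinase to rearrange the light chain genes Igkc and Iglc as small pre-B cells.

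The promoter stretches of 5 genes are printed as examples. Hmgb2, Igll1 and Plcg2 were chosen among promoters of their lists that hold the letters marked, so they show no contrast by themselves. Each is the 250 bases before the transcription start in RefSeq, build GRCm38.p6, written 5′ to 3′ on the strand of the gene. Mki67 (chr7:135716380-135716629, minus strand) and Top2a (chr11:99024190-99024439, minus strand) belong to the selection rule, and Hmgb2 (chr8:57511593-57511842, plus strand) encodes a chromatin protein abundant in dividing cells. Igll1 (chr16:16863986-16864235, minus strand) encodes the lambda5 part of the surrogate light chain, and Plcg2 (chr8:117498025-117498274, plus strand) the phospholipase below the receptor. Capitals in the first 3 mark TTTGAA, the core of the cell cycle homology region, and CCAAT, on either strand (TTCAAA and ATTGG are their complements), and in the last 2 the E-box CAGGTG or its complement CACCTG. No capital run overlaps another.
Mki67: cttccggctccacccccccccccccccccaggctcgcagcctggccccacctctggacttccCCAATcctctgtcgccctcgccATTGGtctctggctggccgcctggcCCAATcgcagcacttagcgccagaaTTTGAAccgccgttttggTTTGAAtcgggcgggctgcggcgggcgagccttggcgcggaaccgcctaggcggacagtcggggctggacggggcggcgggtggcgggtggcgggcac
Top2a: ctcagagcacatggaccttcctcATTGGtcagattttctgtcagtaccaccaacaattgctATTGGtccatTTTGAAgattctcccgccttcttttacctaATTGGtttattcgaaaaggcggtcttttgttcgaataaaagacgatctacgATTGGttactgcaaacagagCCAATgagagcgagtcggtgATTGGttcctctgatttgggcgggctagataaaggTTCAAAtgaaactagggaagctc
Hmgb2: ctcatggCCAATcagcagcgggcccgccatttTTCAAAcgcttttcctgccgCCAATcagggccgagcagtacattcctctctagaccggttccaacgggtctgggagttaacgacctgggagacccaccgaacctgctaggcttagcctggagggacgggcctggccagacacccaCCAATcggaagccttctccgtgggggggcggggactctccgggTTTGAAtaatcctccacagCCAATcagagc
Igll1: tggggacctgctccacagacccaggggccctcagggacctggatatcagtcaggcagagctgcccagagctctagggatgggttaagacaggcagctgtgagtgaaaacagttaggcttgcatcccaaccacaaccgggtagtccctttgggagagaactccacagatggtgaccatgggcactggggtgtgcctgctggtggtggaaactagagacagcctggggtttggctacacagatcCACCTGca
Plcg2: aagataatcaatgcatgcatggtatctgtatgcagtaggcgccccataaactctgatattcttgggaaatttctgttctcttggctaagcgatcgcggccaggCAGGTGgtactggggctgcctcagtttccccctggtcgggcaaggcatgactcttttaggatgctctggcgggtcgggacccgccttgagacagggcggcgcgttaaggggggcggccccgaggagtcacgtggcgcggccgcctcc
TTTGAA occurred in the promoters of 21 of 61 G2 and mitosis genes (34.4%) and CCAAT in 43 (70.5%), and 19 (31.1%) held both. Over all 27025 genes with a promoter in the table, the shares were 16.3%, 34.4% and 5.71%. In 39 S phase genes TTTGAA occurred in 15.4% and CCAAT in 61.5%. CAGGTG occurred in 9 of 15 promoters of pre-B receptor genes, against 17.0% over all genes, 6.56% of G2 and mitosis genes and 5.13% of S phase genes. In the pre-B receptor genes TTTGAA occurred in 13.3% and CCAAT in 26.7%. These are matches of letters in a window and say nothing of binding.

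The label was checked against RNA of other lineages, with limits chosen after seeing the data. Scores for droplets with more than 1 cell are set beside this RNA below, and the part of such droplets in it was not tested. A member was set apart if it held more than 5 UMIs of any of 6 sets (granule proteins such as Mpo and Elane, monocyte genes such as Lyz2 and Csf1r, erythroid, T and NK, basophil genes, or Jchain of plasma cells) or more than 2% haemoglobin UMIs. That was so for 31.0% of Sham members (343 of 1106), 80.0% of MI members (104 of 130) and 69.7% of MI-E members (138 of 198). The granule set alone was over its limit in 8.50%, 59.2% and 49.5% of members, and the monocyte set in 19.4%, 60.8% and 60.6%. Members with such RNA held a median of 9225, 18014 and 16114 UMIs, and those without it 3927, 2159 and 4535. The limits on the 6 sets are fixed counts, so deeper cells pass them more easily, and the part of depth was not tested. By these limits the members of MI and MI-E went against the label in their majority. The shares, most lists and many of the genes named are also given for the 763, 26 and 60 members without other-lineage RNA. Even there, the 16 neutrophil markers had a summed level of 1117 CPM (UMIs per 1000000 UMIs of the class) for Sham, 3606 for MI and 1613 for MI-E. The part of free RNA in these sums was not tested.

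The libraries held 99657072 to 127330601 UMIs, with a median of 2572 to 3451 per filtered cell. Simulated-doublet scores marked 3849, 3056 and 2933 filtered cells of Sham, MI and MI-E as likely doublets, and 238, 33 and 60 of the members. Of members with other-lineage RNA 59.2%, 29.8% and 43.5% were so marked, and of those without it 4.59%, 7.69% and 0%. Between 152 and 167 barcodes were shared by each pair of libraries, and no barcode was a member in both. Levels are CPM of the summed UMIs of a class, which were 8054035, 1971227 and 2643230 for all members.

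Dividing large pre-B cells made up 4.41% of Sham cells (1106 of 25053, 4.16 to 4.68), 0.554% of MI cells (130 of 23455, 0.463 to 0.658) and 0.880% of MI-E cells (198 of 22506, 0.762 to 1.01). On the log2 scale the MI share was lower than Sham by a difference of -2.99 and the MI-E share by -2.33, and MI-E exceeded MI by 0.67. Without other-lineage RNA the shares were 3.05% (2.84 to 3.27), 0.111% (0.0724 to 0.162) and 0.267% (0.204 to 0.343), with log2 differences of -4.78, -3.51 and 1.27. Of the B lineage cells, members were 8.81% for Sham, 3.15% for MI and 3.60% for MI-E, while the B lineage itself was 50.1%, 17.6% and 24.5% of all cells.

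**Figure D1:**
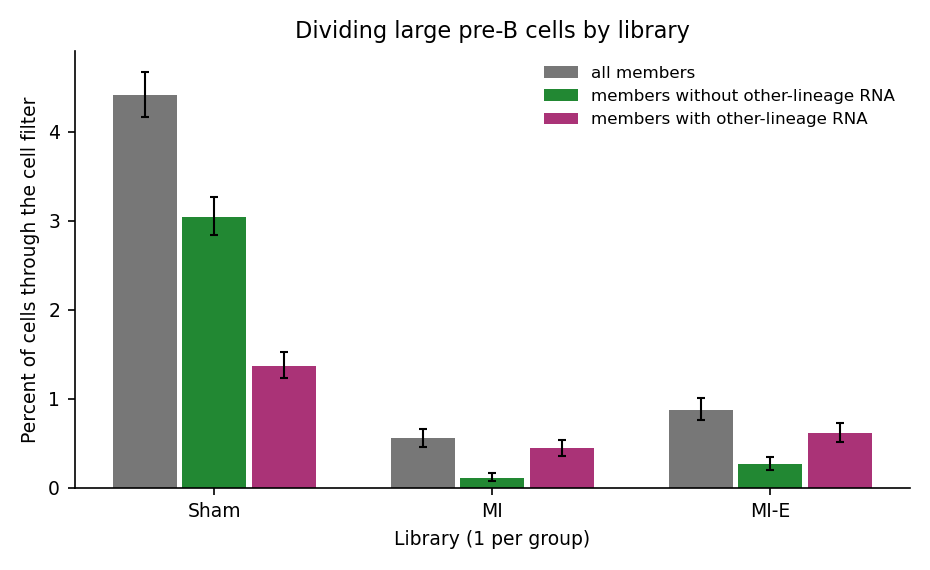
Percent of cells through the cell filter that were dividing large pre-B cells in each library, for all members and for those without and with RNA of other lineages; bars are shares and whiskers exact 95% intervals for counting error. Members without other-lineage RNA are 3.05% of Sham cells, 0.111% of MI cells and 0.267% of MI-E cells.

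Values next to the thresholds were as follows in Sham. The division threshold had 111 members with exactly 2 UMIs of Mki67 and Top2a, and 417 cells with exactly 1 lay just outside it. The B threshold had 28 members with exactly 3 UMIs and 78 cells just outside with 2, and 24 of those 28 and 72 of those 78 held other-lineage RNA. In MI 25 members and 116 cells lay at the division threshold and 37 and 87 at the B threshold, and in MI-E 20, 112, 31 and 89. Of the members with exactly 3 B gene UMIs, 36 of 37 in MI and 31 of 31 in MI-E held other-lineage RNA. Members in Sham had a median of 11 UMIs of the 2 division genes and 18 of the 3 B genes, well inside both limits. In MI the medians were 7 and 7 and in MI-E 12 and 8, in cells with a median of 14090 and 10184 UMIs. The B gene medians there lay nearer the limit than in Sham.

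The 5 genes that mark these cells were all present in Sham members. Mki67 reached 910 CPM, Top2a 995 CPM and Vpreb3 1347 CPM, which the rule required. Myl4, a myosin light chain, reached 443 CPM (714 CPM without other-lineage RNA), against 1.86 CPM in 1978 dividing cells with no B gene UMI. Nrgn, which encodes the calmodulin-binding protein neurogranin, reached 173 CPM (279 CPM), against 12.2 CPM in those cells. Myl4 lies on chromosome 11, 104550663 to 104595753, plus strand, and Nrgn on chromosome 9, 37544492 to 37552904, minus strand, in GRCm38. Each cell without other-lineage RNA was also thinned to 2000 UMIs, which left out 58 Sham members. Myl4 was then seen in 70.1% of them (83.4% unthinned) and Nrgn in 25.1% (40.2% unthinned), against unthinned shares of 1.62% and 3.99% in the dividing cells without B genes, whose median was 7187 UMIs.

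Resting pre-B cells of Sham gave the first comparison: 2036 cells of the same gate with no UMI of Mki67, Top2a, Ms4a1 or the class II genes H2-Aa, H2-Ab1 and H2-Eb1. They held a median of 1238 UMIs per cell, against 5152 in Sham members. Levels in CPM are shares of the RNA of a class, so a lower level need not mean fewer molecules per cell. Of 3168 genes with a mean of at least 50 CPM, 794 (25.1%) differed at least 2-fold, 371 of them higher (11.7%) and 423 lower (13.4%), and without other-lineage RNA 889 of 3176 (28.0%). Scaled by the median of ratios 416 were higher and 361 lower, and by TMM 414 and 369. Lists below count genes with a mean of at least 10 CPM, for which the shares over all genes were 11.8% higher and 13.6% lower. Since division chose both classes, the division lists describe the cells and are no finding. The ranking was headed by H2-Ab1, H2-Aa, Ms4a1 and H2-Eb1, which resting pre-B cells lack by construction and which carry no result.

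Division genes stood far above their resting levels. Of the S phase genes 45 of 47 were past 2-fold higher (median log2 ratio 3.02), of the G2 and mitosis genes 68 of 71 (4.09, in a list without Mki67 and Top2a), and of the replication-dependent histones 35 of 38 (2.58); no gene of these lists was past 2-fold lower. Pclaf, a partner of the replication clamp, stood at 1046 CPM against 22.6 (46.2-fold, 36.4 to 59.6). Cenpf of the kinetochore stood at 307 against 8.32 CPM, Ccna2, cyclin A, at 234 against 6.66, Tpx2 of the spindle at 199 against 5.99 and Cdca8 of the chromosomal passenger complex at 212 against 6.99. The abundant members were Hmgb2 (4911 against 595 CPM), the tubulin regulator Stmn1 (1756 against 112), the linker histone Hist1h1b (1005 against 63.6) and the replication clamp Pcna (657 against 101). Per cell, S phase genes took 0.00% to 3.90% of UMIs in Sham members (median 0.89%) and G2 and mitosis genes 0.01% to 7.52% (median 2.12%), against medians of 0.12% and 0.22% in resting pre-B cells.

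Of 18 genes in the list of G1 cyclins, inhibitors and the retinoblastoma family, 10 were higher (median 1.48) and 1 was lower. The list mixes genes that promote and genes that restrain entry into S phase, so its count has no single meaning. Ccnd3, the D cyclin that pre-B cells depend on, stood at 480 CPM against 250 in resting pre-B cells, which is under 2-fold. Ccnd2, another D cyclin, stood at 139 against 40.6 CPM (3.43-fold, 2.85 to 4.17), Cdk6 at 192 against 47.3 and Cdk4 at 222 against 81.2. Cdkn1b, which encodes the inhibitor p27, was the one lower gene, at 78.5 against 224 CPM. The direction of Ccnd2 turned (log2 -0.16) when the members were set against all 4783 non-dividing cells of the gate, which include Ms4a1 and class II cells.

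Growth lists are read against the 11.8% of all genes past 2-fold higher. Nucleotide and one-carbon synthesis had 19 of 24 genes past 2-fold higher (median 1.80), ribosome biogenesis 13 of 24 (1.18), glycolysis 6 of 14 (0.72) and oxidative phosphorylation 5 of 36 (0.60), with none lower in these 4 lists; the last is near the share over all genes. Without other-lineage RNA 19 of 24, 14 of 24, 5 of 13 and 7 of 36 were higher, and 1 nucleotide gene was lower. Npm1, a nucleolar chaperone, stood at 1721 CPM against 643, Ncl, nucleolin, at 1015 against 333, and Myc, a driver of growth genes, at 40.1 against 5.99; the Myc ratio turned (log2 -0.82) in cells thinned to 1000 UMIs. Of 15 quiescence genes 9 were past 2-fold lower and none higher (median -1.27), and without other-lineage RNA 11 of 15 (-1.68). They included the antiproliferative Btg1 at 369 against 2020 CPM and Klf2, which holds lymphocytes at rest, at 184 against 754.

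The pre-B receptor list had 1 of 20 genes past 2-fold higher and 7 lower (median -0.39), against 11.8% and 13.6% over all genes, and 2 and 5 of 20 without other-lineage RNA (-0.57). Its surrogate light chain part was present in both classes. Igll1 stood at 180 CPM in members and 95.8 in resting pre-B cells (292 and 119 without other-lineage RNA), Vpreb1 at 190 and 161 (297 and 197) and Vpreb2 at 19.0 and 15.0 (29.1 and 18.7). All 3 lie on chromosome 16 of GRCm38: Igll1 at 16860671 to 16863985, Vpreb1 at 16868403 to 16870843 and Vpreb2 at 17980428 to 17981273. Vpreb1 and Vpreb2 are near-identical copies, as are many histone genes and the Iglc genes, so the split of reads between copies is uncertain.

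As shares of RNA, the receptor's heavy chain and its signalling genes were on the low side in dividing cells. Ighm stood at 2522 CPM against 6837 in resting pre-B cells (3157 against 7859 without other-lineage RNA). Syk, the kinase that the receptor recruits, stood at 247 against 911 CPM and its adaptor Blnk at 144 against 382. The adaptor Pik3ap1 stood at 85.4 against 269 CPM, and the kinases Lyn at 134 against 299 and Blk at 94.4 against 210. Slc7a5, an amino acid transporter, was the 1 gene past 2-fold higher, at 33.9 against 12.3 CPM. Btk, Plcg2 and Pik3cd, also below the receptor, were under 2-fold.

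Recombination genes split by their roles. Rag1, the recombinase itself (chromosome 2, 101638282 to 101649501, minus strand), ranked first on the low side among all members, at 31.7 against 538 CPM, a ratio of 0.0589 (0.0514 to 0.0672). Rag2, its partner, stood at 17.4 against 53.9 CPM. Of the end-joining genes, Xrcc6 stood at 112 against 331 CPM and Lig4 at 34.3 against 74.9. The list had 3 of 13 genes past 2-fold higher and 6 lower (median -0.75; 3 and 5 of 14 without other-lineage RNA, -0.54), and the 3 higher genes, Hmgb1, Hmgb2 and H2afx, are chromatin genes of dividing cells. In thinned cells Rag1 was seen in 8.37% of Sham members without other-lineage RNA (6.43 to 10.7, 15.5% unthinned), against 0.303% of the dividing cells without B genes, unthinned.

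Light chain transcripts were measured in dividing members, below their resting level. Igkc stood at 3196 CPM in members and 5033 in resting pre-B cells, and at 1581 and 4858 without other-lineage RNA. The 12 plasma cell markers summed to 968 CPM in all Sham members and 672 without that RNA (11 of 12 above 0), and their part in the Igkc level was not tested. Iglc1 stood at 283 against 1283 CPM, Iglc2 at 154 against 711 and Iglc3 at 115 against 847. In dividing cells without B genes Igkc was 41.1 CPM. After thinning, Igkc was seen in 79.3% of the members without other-lineage RNA (76.1 to 82.2, 94.9% unthinned), and in 27.1% of the dividing cells without B genes, unthinned. Counts of 3′ ends do not show whether a light chain gene is rearranged.

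The interleukin 7 list had 4 of 16 genes past 2-fold higher and 5 lower (median -0.15), and 4 and 5 of 14 without other-lineage RNA (-0.30). Il7r, the receptor, stood at 220 CPM in members and 392 in resting pre-B cells (344 and 449 without other-lineage RNA). Il2ra, which encodes CD25 and is a usual surface marker of small pre-B cells, stood at 16.0 against 175 CPM, and Socs1, a feedback inhibitor of cytokine signals, at 10.3 against 79.5. Pim1 stood at 133 against 349 CPM and the survival gene Mcl1 at 172 against 403. The higher genes were Myc, Ccnd2, Kit and Bcl2, of which Kit stood at 19.9 against 4.33 CPM in all cells and at 4.30 against 4.99 without other-lineage RNA. Bcl2, a survival gene, stood at 21.9 against 9.98 CPM, and at 15.8 against 3.33 without that RNA.

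No B lineage transcription factor was past 2-fold higher, and 15 of 27 were past 2-fold lower (median -1.08). Ebf1, which sets up the B program, stood at 1417 CPM against 5364, and Pax5, which holds it, at 233 against 544. Factors known from the small pre-B stage were also below their resting levels: Foxo1, which activates the recombinase, at 53.3 against 261 CPM, Ikzf3, Aiolos, at 57.0 against 214, Irf4 at 103 against 262, Spib at 196 against 907 and Bach2 at 308 against 991. Ikzf1, Ikaros, stood at 272 against 469 CPM, which is under 2-fold. Without other-lineage RNA 12 of 26 factors were past 2-fold lower and none higher (median -0.96), against 17.0% and 12.2% of all genes.

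Further genes named by rank on the low side had varied roles. Col5a3, a collagen chain, stood at 7.57 against 128 CPM, Cacna1e, a calcium channel subunit, at 8.69 against 120, Atp1b1 of the sodium pump at 136 against 1283, and Dusp5, a phosphatase of the MAP kinase ERK, at 17.1 against 148. Lynx1, Nav2, the metalloprotease Adam19 and the co-chaperone Dnajc7 were also among the first 10 on the low side. Nrgn, which is in no division list, was among the first 10 on the high side, at 37.1-fold (22.1 to 68.1). Myl4 by contrast was close to its resting level of 365 CPM.

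**Figure D2:**
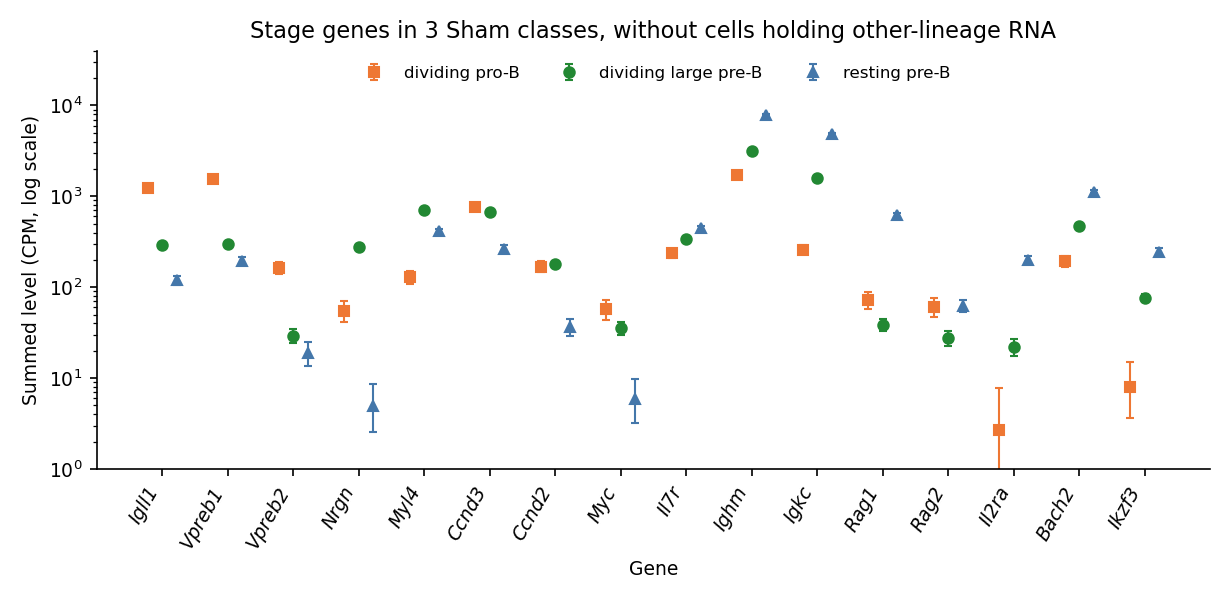
Summed level in CPM (log axis) of 16 stage genes in dividing pro-B, dividing large pre-B and resting pre-B cells of Sham, without cells holding other-lineage RNA; points are class sums and whiskers exact 95% Poisson intervals. Igll1 stands at 1246, 292 and 119 CPM in the 3 classes in that order, and Rag1 at 72.2, 38.7 and 618 CPM.

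Dividing pro-B cells were compared next, since they passed the same division limit. They were 195 Sham cells with the same limits but at least 1 UMI of Dntt. Of 3036 genes, 92 (3.03%) were past 2-fold, 53 higher (1.75%) and 39 lower (1.28%), and 117 of 3038 (3.85%) without other-lineage RNA. No gene of the S phase (47 genes, median 0.02), G2 and mitosis (71, 0.06) or histone lists (39, 0.23) was past 2-fold, nor any of the 18 G1 genes (0.01). Ribosome biogenesis (25 genes, median -0.09), glycolysis (15, 0.10) and oxidative phosphorylation (36, -0.08) had none past 2-fold either.

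Pro-B genes were lower in the large pre-B cells, among them the surrogate light chain. Vpreb1 stood at 190 CPM in members against 1297 in dividing pro-B cells, Igll1 at 180 against 1032 and Vpreb2 at 19.0 against 139. The ratio of Igll1 was 0.175 (0.163 to 0.188), and without other-lineage RNA the levels were 292 against 1246 CPM. Other low genes by rank were Arpp21, a phosphoprotein gene, at 2.73 against 119 CPM, the growth factor coreceptor Gfra2 at 14.7 against 123, the adhesion receptor Adgrg1 at 41.2 against 294 and Bfsp2, a filament gene, at 71.1 against 463. Lef1, a factor of early B cell precursors, stood at 63.7 against 291 CPM and Impdh1 of guanine nucleotide synthesis at 42.2 against 199. In all 10 of 16 genes of the pro-B list were past 2-fold lower (median -1.40), against 2.36% of all genes, not counting Dntt, which the rule used, and 9 of 14 without other-lineage RNA (-1.30).

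Genes of later stages were higher. Of 19 immature and mature B genes 11 were past 2-fold higher and none lower (median 1.05), against 2.69% of all genes, and without other-lineage RNA 11 of 18 (1.46), against 2.77% of all genes higher and 4.09% lower. Myl4 stood at 443 against 103 CPM (4.30-fold, 3.68 to 5.06), Fcrla, an Fc receptor-like gene of B cells, at 234 against 56.1, Glcci1 at 109 against 28.4 and Nrgn at 173 against 53.0. Ikzf3 stood at 57.0 against 9.87 CPM, Irf4 at 103 against 37.0 and Spib at 196 against 64.1, while Erg, a factor of progenitors, stood at 3.60 against 77.7. Igkc stood at 3196 against 246 CPM (1581 against 259 without other-lineage RNA) and Ighm at 2522 against 1447.

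The high side of the ranking against pro-B cells held genes of other lineages: the basophil proteases Prss34 (408 against 4.93 CPM) and Mcpt8 (251 against 6.78), Jchain (181 against 1.85), and the erythroid genes Car1, Blvrb, Hbb-bs and Hbb-bt. Without cells holding such RNA Prss34 was 5.49 CPM, and the first 10 were Myl4, Fcrla, Nrgn, Glcci1, Ms4a1, Cpm, Spib, Lmo4, Ralgps2 and Cnp, from Myl4 at 714 against 129 CPM to Cnp at 399 against 110. Ms4a1, which encodes CD20, stood at 117 against 23.2 CPM in that comparison. Prss34 turned (log2 -0.12) under the stricter limits on other-lineage RNA.

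Dividing cells without B genes, 1978 in Sham, held the 16 neutrophil markers at a sum of 103596 CPM, and 98.3% of them were over an other-lineage limit. Of 2899 genes 368 (12.7%) were past 2-fold, 195 higher (6.73%) and 173 lower (5.97%); scaled by the median of ratios 142 were higher and 274 lower, and by TMM 144 and 265. There were 712 of 2931 (24.3%) without other-lineage RNA among the members. The high side of the ranking began with Ebf1 (1417 against 6.27 CPM), Myl4 (443 against 1.86), the plasma and B cell chaperone gene Mzb1 (283 against 1.57), Fcrla and Pax5. The low side began with the neutrophil granule genes Camp (69.9 against 12017 CPM) and Ngp (57.1 against 8329), then Lcn2, Ltf and Wfdc21. The median of all genes lay at 0.26 (log2), so list medians are read against that value. With a mean of at least 10 CPM, 6.94% of genes were past 2-fold higher and 6.7% lower, and 12.6% and 13.6% without other-lineage RNA. S phase genes had 6 of 47 past 2-fold higher (median 0.62) and without other-lineage RNA 21 of 47 (0.97), and glycolysis had 5 of 17 past 2-fold lower (-0.62) and then 10 of 17 with 1 higher (-1.04). G2 and mitosis genes had 1 of 71 past 2-fold higher (0.28), close to the median of all genes.

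**Figure D3:**
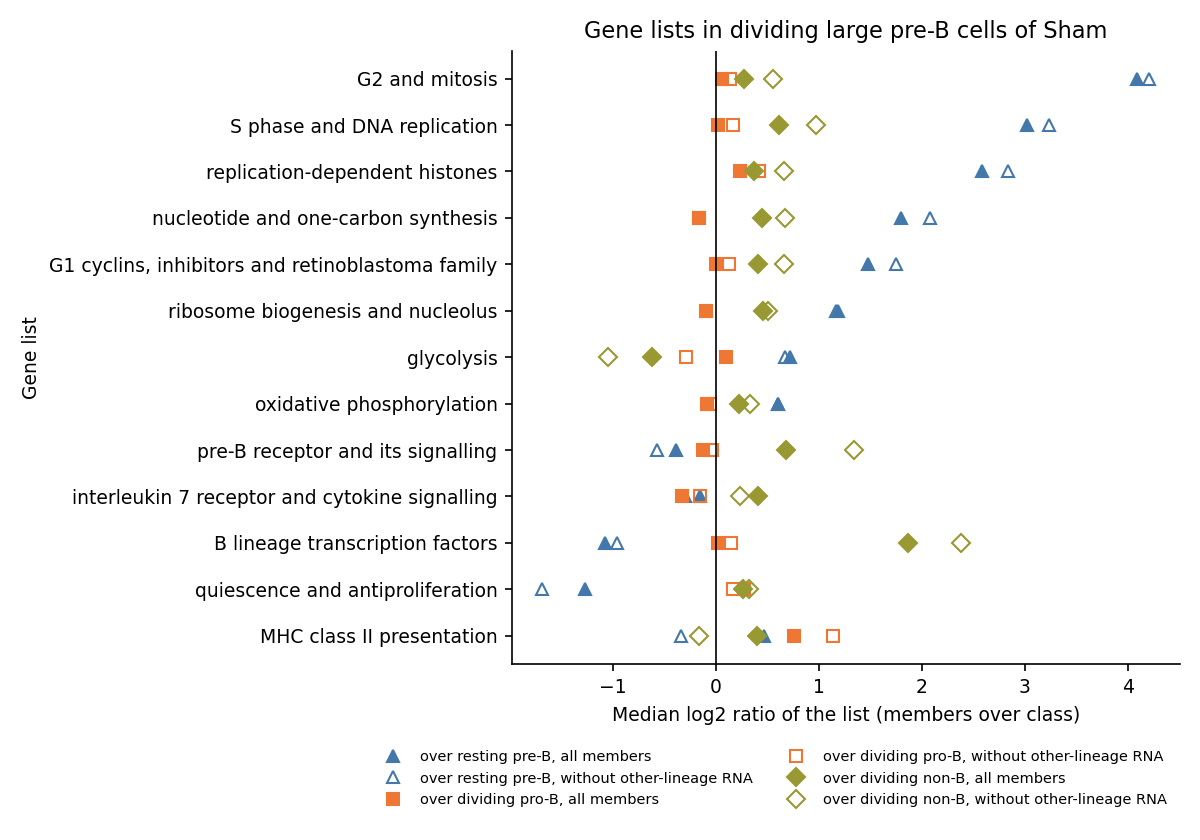
Median log2 ratio of 13 gene lists in dividing large pre-B cells of Sham over resting pre-B, dividing pro-B and dividing non-B cells; filled symbols are all members and open symbols members without other-lineage RNA. G2 and mitosis genes lie at 4.09 over resting pre-B and at 0.06 over dividing pro-B, and B lineage transcription factors at -1.08 and 0.02. Resting pre-B cells lack H2-Aa, H2-Ab1 and H2-Eb1 by construction, so the class II points over them carry no result.

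Members of Sham differed among themselves along the surrogate light chain. The 705 members without other-lineage RNA that held at least 2000 UMIs were thinned to that number and split by their UMIs of Igll1, Vpreb1 and Vpreb2: 484 cells with 0 (68.7%), 143 with 1 to 2 (20.3%) and 78 with 3 or more (11.1%). A UMI of these genes was seen in 31.3% (27.9 to 34.9, 38.5% unthinned), against unthinned shares of 1.52% for Igll1 and 1.67% for Vpreb1 in dividing cells without B genes. Levels below are full sums in that order of cells. The median UMIs per cell were 3606, 6439 and 10979, so cell size or depth moved with the split, and its part was not tested.

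Growth genes were highest in the cells with most surrogate light chain. Ccnd2 stood at 98.4, 181 and 396 CPM, Myc at 12.4, 39.1 and 90.0 CPM and Npm1 at 1014, 2409 and 3340 CPM. Nrgn stood at 145, 407 and 457 CPM, while Ccnd3 was about level at 621, 765 and 695 CPM. Between 3 or more UMIs and 0, 132 of 2988 genes were past 2-fold higher (4.42%) and 287 lower (9.61%), for genes with a mean of at least 50 CPM. The first, ranked by the lower bound of the ratio, were Srm, spermidine synthase, at 178 against 17.2 CPM (10.3-fold, 7.14 to 15.3), the nucleolar Srfbp1, Myc (7.24-fold), the cytokine gene Mif (3.97-fold) and Aprt of purine salvage. Ribosome biogenesis had 15 of 21 genes past 2-fold higher (median 1.33), nucleotide synthesis 9 of 18 (0.91) and glycolysis 5 of 10 (1.00), with none lower. Among all members, other-lineage RNA included, the same lists had 10 of 20 (0.97), 5 of 17 (0.83) and 1 of 10 (0.30) higher, with none lower.

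Genes of later stages ran the other way. Igkc stood at 2512, 686 and 299 CPM, Cd74, the class II chaperone, at 685, 109 and 36.2 CPM, and Ms4a1 at 203, 26.9 and 16.4 CPM. Rag1 stood at 51.1, 13.9 and 5.84 CPM, Rag2 at 40.1, 19.1 and 4.67 CPM and Il2ra at 29.6, 12.2 and 8.18 CPM. Klf2 stood at 322, 83.4 and 38.6 CPM, Syk at 445, 226 and 104 CPM, Spib at 404, 189 and 79.4 CPM and Ighm at 3927, 2477 and 1894 CPM. These genes were thus carried mainly by members in which no surrogate light chain UMI was seen, 68.7% of the cells split. The rule sets no limit on these genes, so dividing cells of later stages without Ighd can be members. Their part in Sham was not tested.

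Division genes differed across the split by list. S phase genes took a median of 1.19%, 1.18% and 1.01% of UMIs per cell, and G2 and mitosis genes 3.06%, 2.05% and 1.72%. Of the G2 and mitosis genes 12 of 67 were past 2-fold lower in the cells with 3 or more UMIs (median -0.61), of S phase genes 2 of 43, and of the histones 19 of 25 (median -1.16). Class II genes had 5 of 6 past 2-fold lower (median -2.95) and quiescence genes 7 of 9 (median -1.95), among them Btg1. The median of all 2988 genes lay at -0.14. Among all members, other-lineage RNA included, 289 of 2967 genes (9.74%) were past 2-fold, 74 higher (2.49%) and 215 lower (7.25%), 3 of 24 histones and 1 of 66 G2 and mitosis genes were lower, and Myc stood at 31.5, 58.7 and 63.5 CPM, which is about 2-fold.

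**Figure D4:**
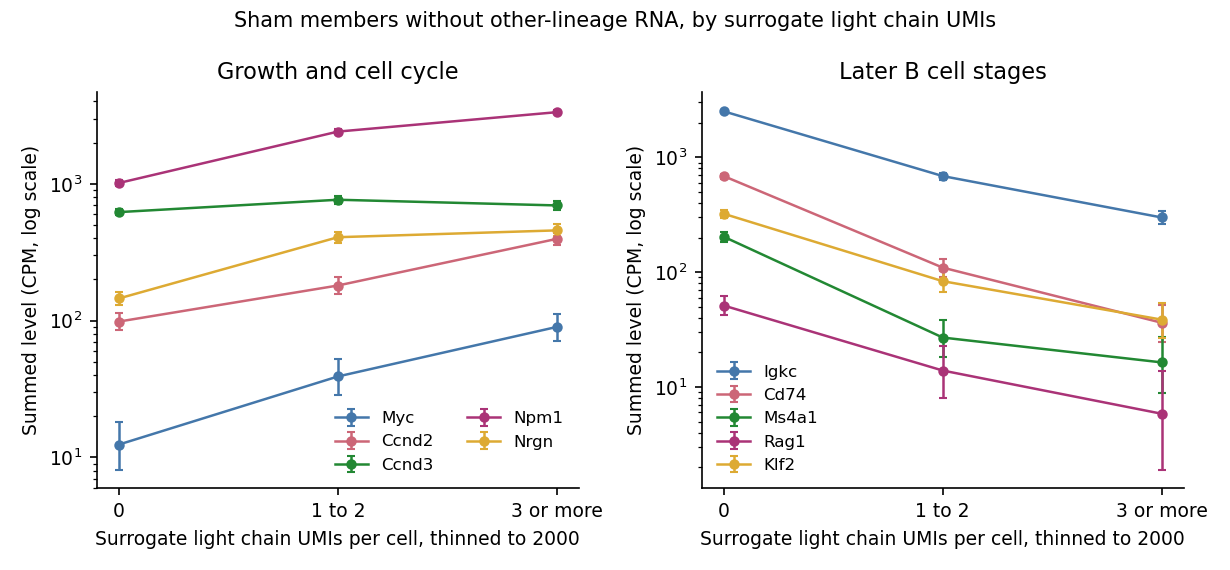
Levels in CPM (log axes) of growth and cell cycle genes and of genes of later B cell stages in Sham members without other-lineage RNA, by surrogate light chain UMIs in the thinned cell (0, 1 to 2, 3 or more); whiskers are exact 95% Poisson intervals. Myc runs from 12.4 to 90.0 CPM and Igkc from 2512 to 299 CPM.

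Comparisons between libraries in all members stand beside the shares of other-lineage RNA given above. Of 3011 genes 394 (13.1%) were past 2-fold between MI and Sham, 274 of 3109 (8.81%) between MI-E and Sham and 39 of 3065 (1.27%) between MI-E and MI; the comparisons share libraries. In MI the first genes on the high side against Sham were the granule protease Ctsg (2620 against 433 CPM), Mt1, Dmkn, Ms4a3, Ifitm1 and Prtn3 (4098 against 886), of which Ctsg, Ms4a3 and Prtn3 are genes of granulocyte precursors. In MI-E they were Vcan of monocytes (127 against 22.3 CPM), the linker histone H1f0, Gsr, Igfbp4, Prtn3 (3112 against 886) and Dstn. Myl4 and the surrogate light chain genes Igll1 and Vpreb1 were lower than in Sham. Myl4 stood at 443 (Sham), 14.2 (MI) and 65.1 CPM (MI-E), Igll1 at 180, 7.10 and 81.7, and Vpreb1 at 190, 17.8 and 80.6. Genes of later B cell stages did not all go that way. In thinned members Ms4a1 was seen in 12.8%, 13.3% and 12.6% in that order, and Cd74 in 32.0%, 31.9% and 27.4%. Igkc was seen in 75.2%, 49.6% and 52.1%, and Iglc2 in 12.6%, 13.3% and 6.32%. Low genes also included Bach2, Slamf7 and Ifi27l2a in MI and Prss34, Ifi27l2a, Mcpt8, Tmem108 and Ly6d in MI-E. Between MI-E and MI the first genes were H1f0, Hist1h2ap and Bach2, higher, and Prss34, Car1 and Ifitm1, lower.

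Members of MI-E without other-lineage RNA, 60 cells, held surrogate light chain genes and Nrgn above the Sham level and Myl4 below it. Igll1 stood at 292 (Sham), 185 (MI) and 652 CPM (MI-E), and Vpreb1 at 297, 469 and 638. Nrgn stood at 279, 128 and 431 CPM and Myl4 at 714, 142 and 459. A surrogate light chain UMI was seen after thinning in 31.3% of Sham cells, in 5 of 14 MI cells (35.7%, 12.8 to 64.9, 12 left out, 19.2% unthinned) and in 36 of 53 MI-E cells (67.9%, 53.7 to 80.1, 7 left out, 70.0% unthinned). The directions of Igll1, Vpreb1 and Nrgn between MI-E and Sham were thus opposite in all members and in members without other-lineage RNA.

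Of 3077 genes 168 (5.46%) were past 2-fold between MI-E and Sham in those cells, 61 higher (1.98%) and 107 lower (3.48%). H1f0 came first, at 21.2, 0 and 210 CPM for Sham, MI and MI-E (9.90-fold over Sham, 7.02 to 13.9), with a UMI in 71 of 763, 0 of 26 and 25 of 60 cells. Fkbp5, a classic target of the glucocorticoid receptor, stood at 42.0, 71.0 and 154 CPM (3.67-fold, 2.58 to 5.13), in 150, 4 and 33 cells. Zfp36l2, an RNA-binding factor that restrains pre-B division, stood at 226, 667 and 680 CPM (3.01-fold, 2.56 to 3.52), Crip1 at 2073, 3691 and 5187 CPM and Gfra2 at 24.8, 14.2 and 84.2 CPM. The cell with most UMIs gave 11.7% of the MI-E UMIs of H1f0, 6.82% of Fkbp5, 5.15% of Zfp36l2 and 5.41% of Crip1.

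The low side in MI-E was led by Ifi27l2a, an interferon-induced gene, at 584, 667 and 147 CPM in the same order of libraries. Ccnd3 stood at 671, 170 and 221 CPM (ratio of MI-E to Sham 0.329, 0.252 to 0.422). Ly6d stood at 503, 1235 and 168 CPM, Lgals1, galectin 1, at 288, 199 and 87.7 CPM, and Coq7 and Blvrb completed the first 6. The other D cyclin, Ccnd2, stood at 182, 142 and 217 CPM, with a log2 ratio of MI-E to Sham of 0.26. Against 7.04% of all genes higher and 6.42% lower with a mean of at least 10 CPM, S phase genes of MI-E had 0 of 47 past 2-fold higher and 1 lower (median -0.16), G2 and mitosis 2 of 71 higher and none lower (0.18) and histones 1 of 39 higher and 8 lower (-0.56).

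The glucocorticoid response list had 7 of 22 genes past 2-fold higher in MI-E than Sham in these cells (median 0.70) and 1 lower, against 7.04% and 6.42% of all genes with a mean of at least 10 CPM. The 7 were Tsc22d3, Fkbp5, Klf9, Ddit4, Zfp36l2, Pik3ip1 and Bcl6, of which Klf9, Ddit4 and Bcl6 rest on 7, 8 and 4 UMIs in MI-E. Tsc22d3, which encodes the leucine zipper protein GILZ, stood at 32.7, 284 and 91.2 CPM. In all members the list had 4 of 22 genes higher and 1 lower in MI-E (median -0.16), against 5.42% and 4.53% of all genes, and 3 of 21 higher and 5 lower in MI (-0.41), against 6.45% and 7.99%. In MI without other-lineage RNA it had 11 of 21 higher and 1 lower (1.03), against 21.4% and 9.08%. That sum held 70433 UMIs, where very few UMIs can put a gene past 2-fold higher. With a sum of 0 set to 3 counts, calls there lean to the high side by construction. No B lineage transcription factor of 25 was past 2-fold either way in MI-E (median 0.08).

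MI-E members without other-lineage RNA held more surrogate light chain than those of Sham. In these cells, levels of some of the ranked genes were therefore also set side by side within each class of the split. These genes were ranked in the same cells, so a kept direction is a description and no separate support. The part of the split in the library differences was not tested. Zfp36l2 stood at 201, 236 and 271 CPM in Sham cells with 0, 1 to 2 and 3 or more surrogate light chain UMIs, and at 695, 627 and 713 CPM in the 17, 16 and 20 cells of MI-E. Fkbp5 stood at 44.0, 40.8 and 40.9 CPM against 192, 138 and 130. Ccnd3 stood at 621, 765 and 695 CPM against 222, 308 and 148. Each of these 3 genes kept its direction in all 3 classes. Ifi27l2a (884, 289 and 109 CPM against 266, 106 and 60.9) and Ly6d (816, 188 and 65.4 against 355, 42.5 and 60.9) were lower in MI-E in all 3 classes, by little for Ly6d in cells with 3 or more UMIs.

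The 26 MI members without other-lineage RNA had a different make-up, with more RNA of later B cell stages. The label is thus doubtful for them too, also where their share is given. Their median was 3.5 UMIs of Mki67 and Top2a together, against 10 in such members of Sham and 9.5 in those of MI-E. Cd74 stood at 1846 CPM against 398 in Sham and 221 in MI-E, Ms4a1 at 511 against 117 and 59.6, and H2-Aa at 667 against 107 and 91.2. Class II genes had 11 of 13 past 2-fold higher than Sham (median 2.21), against 21.4% of all genes, while 24 of 38 histones (median -1.42) and 16 of 47 S phase genes (-0.79) were past 2-fold lower, against 9.08%. Of 3216 genes 698 (21.7%) were past 2-fold. The first by rank, Ifitm1 and Ctla2a, came from 1 cell that held 100% of their UMIs, and the next were Fcrl1, Tsc22d3, H2-Ob and Ltb, genes of B cells or glucocorticoid response. The lower ones were Hist1h2bb at 0 CPM, Ptbp1, Myl4, Hist1h2ae, Ezh2 and Uhrf1. With 70433 UMIs in the MI cells a level rests on a handful of molecules, as for the 5 UMIs of Fkbp5.

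**Figure D5:**
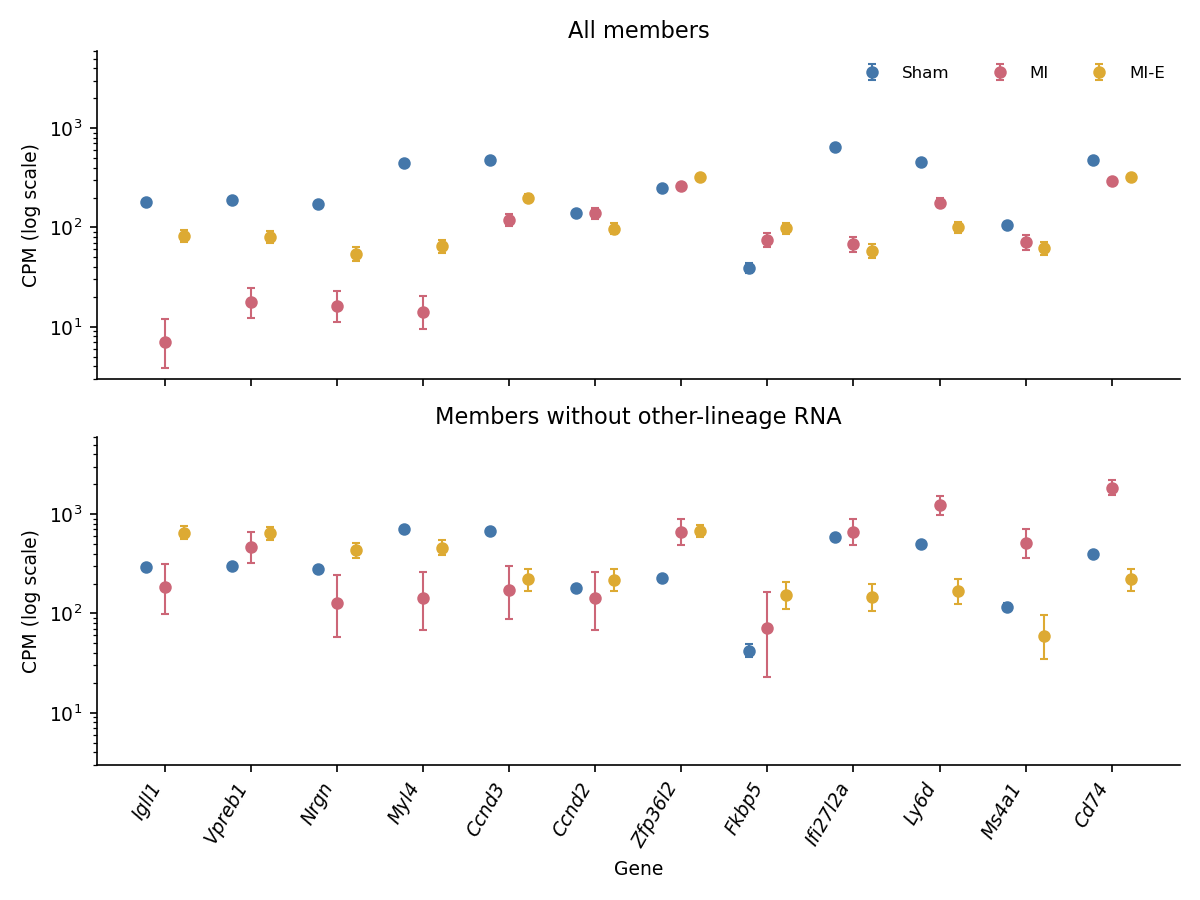
Levels in CPM (log axes) of 12 genes in dividing large pre-B cells of the 3 libraries, for all members (top) and members without other-lineage RNA (bottom); points are class sums, 1 library per group, and whiskers exact 95% Poisson intervals. Igll1 in MI-E lies below Sham in the top panel (81.7 against 180 CPM) and above it in the bottom panel (652 against 292 CPM).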

How the data were processed

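Bone marrow of 3 groups (Sham, MI and MI-E, 1 library each) was profiled with 10x Genomics 3′ chemistry. The authors deposited whole-number UMI counts per gene and barcode. Per the submitters' processing notes, the tool was Cell Ranger 5.0.1 and the build mm10, with no annotation release stated in the sources used here. Barcodes under 300 genes or 500 UMIs, or above 10% mitochondrial RNA, were dropped, and members were chosen by the limits in the text. The members and gene lists were chosen with earlier results of these data known.

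UMIs were summed per class and library and divided by the class total (CPM). With 1 library per group no test was made. Ratios carry exact conditional binomial intervals, levels Poisson intervals and shares Clopper-Pearson intervals at 95%, and a sum of 0 was set to a floor of 3 counts. Genes of the selection rule, immunoglobulin and T cell receptor segments, mitochondrial, ribosomal protein and unnamed model genes left out, genes with a mean of at least 50 CPM were ranked by the bound of the ratio's interval nearest 1, and the first were named: 10 in each direction against resting pre-B and pro-B cells, 5 against dividing non-B cells, 6 between each library and Sham and 3 between MI-E and MI. Between libraries, genes under 0.5 times their library's all-cell level in both sums were not ranked. A few ranked or listed genes are not reported here. Members of the pre-B receptor, recombination, interleukin 7 and transcription factor lists and the most abundant genes of other lists were named too. Cells were thinned to 2000 UMIs for shares. Doublets were scored with scrublet in scanpy 1.11.5, per library with its automatic threshold, and were not removed, except in an alternative. The limits on other-lineage RNA, a second choice after 1 earlier set of limits, and the removal of the cell with most UMIs of a gene were chosen after seeing the data. Tested on simulated data for the resting pre-B comparison (3118 genes, 200 changed 4-fold), the calls recovered 100% of changed genes and 0% of unchanged ones, and 94.4% of intervals held the true ratio. The counts were Poisson draws at the UMI totals of those classes, without spread between cells or libraries. They check the calculation only, and the comparisons between libraries were not simulated. Tables were made in Python 3.11.15 with pandas 2.3.3, intervals with scipy 1.17.1, thinning with numpy 2.4.6 and plots with matplotlib 3.10.9. Promoters were taken from RefSeq and gene positions from GENCODE M21.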

Additional observations from a re-analysis of the deposited data

How the results depend on the processing

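No paired analysis was possible because each group is 1 library, and for the same reason no replicate could be left out. In the text 794 genes were past 2-fold against resting pre-B cells, 92 against dividing pro-B, 368 against dividing non-B, 394 for MI over Sham, 274 for MI-E over Sham and 39 for MI-E over MI, and the shares differed by -2.99, -2.33 and 0.67 (log2). Of these results under the alternatives, 82 values stayed near the main one and 48 moved; of single genes and lists 2078 stayed, 814 moved and 31 reversed. A count stayed if it was within 1.5 times the main count, a share or ratio if it lay inside the 95% interval of the main value, and a list median if it was within 0.5 (log2); a value past 2-fold reversed if it changed sign. Unless stated, the cause was not tested.

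The CPM minimum sets how many genes are tested. At 100 CPM the counts were 411, 43, 175, 194, 140 and 22 in the order above, and at 20 CPM 1521, 220, 720, 779, 540 and 117. Within MI and within MI-E, 1258 and 1244 genes were past 2-fold against resting pre-B cells. With at least 6 B gene UMIs, 85 genes were past 2-fold for MI-E over MI, and the shares differed by -3.70 (MI over Sham) and -2.86 (MI-E over Sham). With at least 1 UMI of Mki67 and Top2a the MI share differed by -2.54. As shares of B lineage cells the differences were -1.48, -1.29 and 0.19.

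Without other-lineage RNA 712 genes were past 2-fold against dividing non-B cells, 698 for MI over Sham, 168 for MI-E over Sham and 746 for MI-E over MI, with share differences of -4.78, -3.51 and 1.27. Reversed log2 ratios were those of Dstn (-1.24), Igll1 (1.16), Nrgn (0.63) and Vpreb1 (1.10) for MI-E over Sham and of Ifi27l2a (0.19), Mt1 (-0.013) and Vpreb1 (0.66) for MI over Sham. Stricter limits gave 778 genes against non-B, 142 against pro-B, 980 for MI over Sham and 899 for MI-E over MI, and shares of -4.15 and -3.16. They reversed Dstn (-1.28), Igfbp4 (-0.44), Igll1 (0.99), Nrgn (0.80) and Vpreb1 (0.88) for MI-E over Sham, Ifi27l2a (0.25) and Vpreb1 (0.91) for MI over Sham, and Prss34 against pro-B (-0.12). Both sets of limits were chosen after seeing the data.

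With a surrogate light chain UMI required, 554 genes were past 2-fold against non-B, 527 for MI-E over MI and 131 for MI-E over Sham, the shares differed by -5.41 (MI over Sham) and 2.92 (MI-E over MI), and Igll1 stood at 0.047 for MI-E over Sham. With cells weighted equally there were 655 genes against non-B and 85 for MI-E over MI, and Igll1 (0.47) and Vpreb1 (0.41) reversed for MI-E over Sham. Against all non-dividing cells of the gate, which by construction hold class II and Ms4a1 RNA, Ccnd2 (-0.16), H2-Aa (-2.13), H2-Ab1 (-1.58), H2-Eb1 (-2.23) and Ms4a1 (-3.11) reversed.

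Thinning every cell to 1000 UMIs before the gate left fewer UMIs by construction. It gave 849 genes against non-B, 742 against pro-B, 1151 for MI over Sham, 846 for MI-E over Sham and 1354 for MI-E over MI, and share differences of -4.18 and -3.58. It reversed Myc against resting pre-B cells (-0.82), Dstn (-0.74), Igll1 (0.73), Nrgn (0.63) and Vpreb1 (1.33) for MI-E over Sham, and Prtn3 (-0.063), Slamf7 (0.27) and Vpreb1 (0.12) for MI over Sham. Depth limits the 26 MI members without other-lineage RNA most, which hold 70433 UMIs in all.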
